A study of Mus musculus with 7 samples.

Results

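The genes described here make cholesterol and fatty acids or set the rate at which cells do so. They were followed in hematopoietic stem cells (HSCs) from mouse bone marrow. A list of 33 gene symbols was looked up in a table of 23284 genes, and all 33 symbols were found. Of these, 32 had reads and passed the filter on low counts, which left 12917 genes in the table for testing. The remaining one, Hmgcs1, the gene for the synthase that opens the mevalonate pathway, was listed at 0 in every library. Rpl26, which encodes a ribosomal protein, and Ndufs5, which encodes a subunit of respiratory complex I, were listed at 0 in every library too. No level of Hmgcs1 is therefore given.

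The samples came from C57BL/6 mice carrying a fluorescent reporter (GFP) of Hdc, the gene for the enzyme that makes histamine. The study set a GFP-bright fraction of these HSCs, Hdc-GFPhi (3 libraries), against a GFP-dim one, Hdc-GFPlo (4 libraries), with 500 cells in a library. All 4 Hdc-GFPlo libraries share the genotype label, but the sorted fraction of replicate 4 is labelled Hdc-GFP- and that of the other 3 Hdc-GFPlo. The sample titles name all 4 Hdc_gfplo, and the headers of the counts name all 4 GFPminus. Whether replicate 4 was gated differently cannot be told from these labels. Both groups carry the reporter, and the labels name no treatment, age or surface markers for the HSC gate. They do not tie replicates to different mice, so each p-value rests on a spread between libraries that could be technical.

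Cells build cholesterol from acetyl-CoA through mevalonate, isoprenoid units, squalene and lanosterol, and the same isoprenoids are used to anchor signalling proteins in membranes. Fatty acids are built from the same acetyl-CoA and are then elongated and desaturated. Both branches are driven by the transcription factors SREBP1 and SREBP2. These are held in the endoplasmic reticulum by Insig proteins when sterols are plentiful and are carried by Scap to be cleaved when sterols run short. Cells that divide need new membrane, and both branches supply it.

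No gene of either branch was called different between the fractions. Of the 32 tested genes, 16 had a higher and 16 a lower fitted value in Hdc-GFPhi, with a median log2 fold change of 0.01, the same as the median over all 12917 genes (0.01). None passed edgeR's quasi-likelihood test after Benjamini-Hochberg adjustment over all genes (smallest adjusted p = 0.332), and the test passed 0 genes of the whole table (0%). At an unadjusted edgeR p under 0.05 there were 2 of the 32 genes (6.25%), against 12.2% of all tested genes. Elovl6 was the 1 with a higher value (background 4.92%) and Vldlr the 1 with a lower value (background 7.31%). DESeq2 passed 0 of the 31 genes for which it gave an adjusted p, against 3.14% of all genes with one, and limma with quality weights passed 0. In no member did the Hdc-GFPhi libraries lie entirely above or below the Hdc-GFPlo libraries, a separation seen in 11.9% of all tested genes.

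Given the spread between these libraries, which could be technical, the data bound the size of a difference for most of the genes. For 28 of 32 genes (87.5%) the 95% interval of the log2 fold change lay between -1 and 1, a change of less than 2-fold either way, which held for 69.5% of all tested genes. The median standard error was 0.17 for these genes and 0.19 over all genes. The 4 genes with wider intervals were Idi1, Tm7sf2, Vldlr and Scd1. The intervals of 15 genes lay within 1.5-fold either way. Where an interval holds 0, a difference inside it cannot be told from none. The summed level of the 32 genes was 3081, 2965 and 3350 CPM (read counts scaled to library size) in Hdc-GFPhi replicates 1 to 3 and 3154, 3197, 3046 and 3377 CPM in Hdc-GFPlo replicates 1 to 4. The means were 3132 ± 198 (SD, n = 3) and 3194 ± 138 (SD, n = 4), closer than the spread within either fraction.

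**Figure D1:**
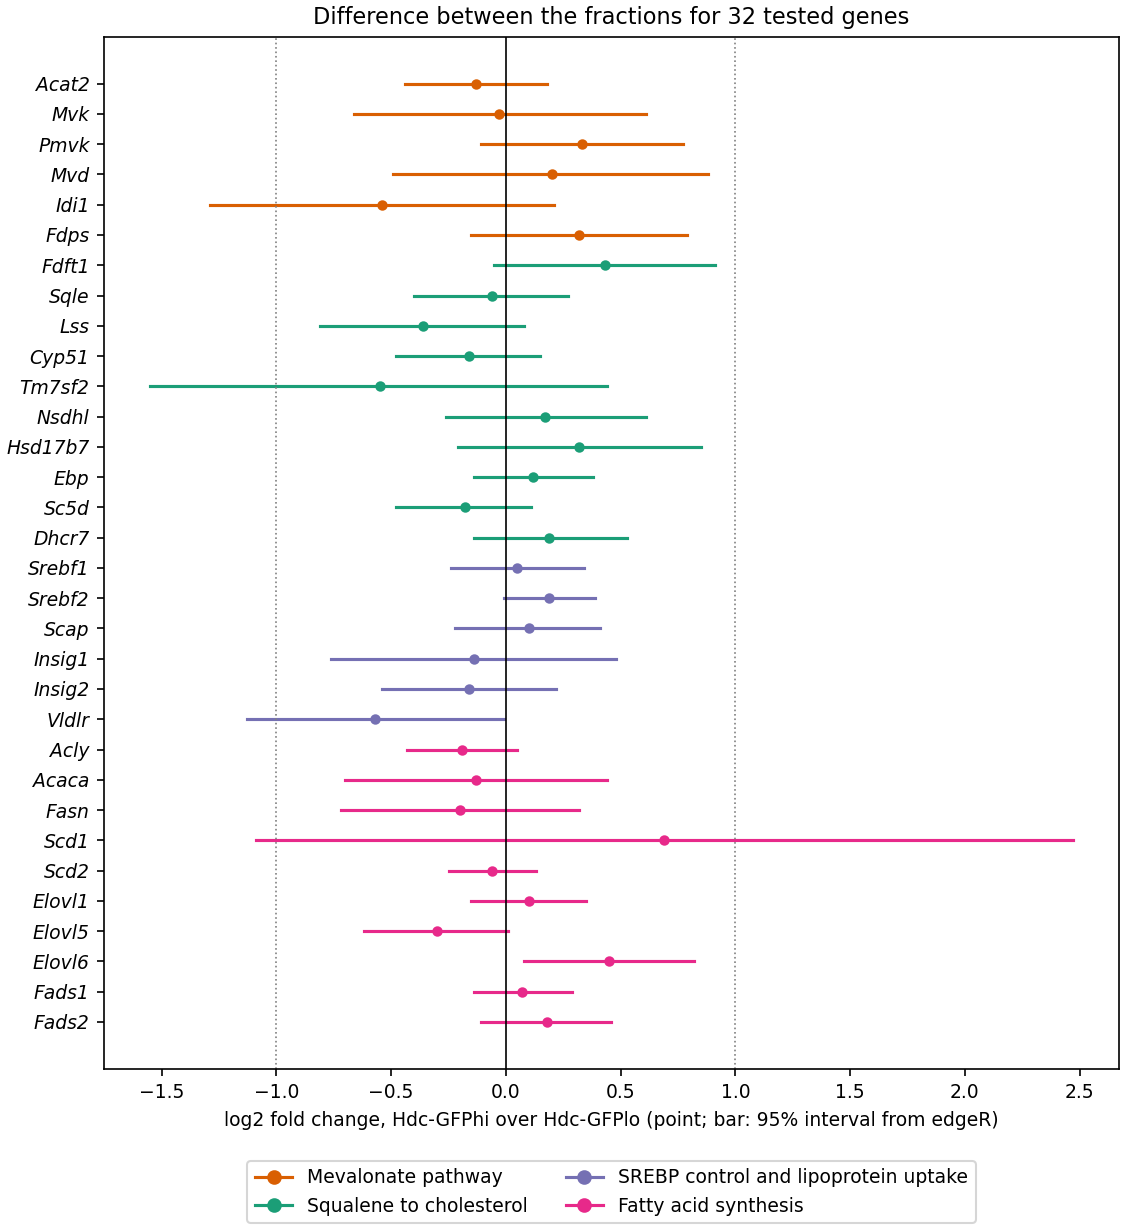
Log2 fold change of each tested gene (x axis, Hdc-GFPhi over Hdc-GFPlo; points, fitted values; bars, 95% intervals; dotted lines, -1 and 1), ordered by role from the mevalonate pathway to fatty acid synthesis. Points lie on both sides of 0 in every role, and the bars of Elovl6 (0.08 to 0.82) and Vldlr (-1.13 to -0.01) are the only ones that leave out 0.

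Total counts were 19606124 to 23688672 per library, so that 3 counts, the limit that a count of 0 allows, equalled 0.125 to 0.160 CPM. This limit covers counting error only, because amplified reads are not independent molecules. The HSC markers Procr, Kit, Ly6a, Slamf1, Mecom, Hlf and Fgd5 had reads in every library, with summed levels of 1562 to 1915 CPM in Hdc-GFPhi and 2169 to 2317 CPM in Hdc-GFPlo. Kit made up most of these sums (means 1198 and 1590 CPM), and DESeq2 called it (adjusted p = 0.00893). Kit, Mecom and Hlf were lower without overlap (42.9% of the list, background 5.87%), while Procr and Fgd5 were level (log2 fold changes -0.01 and 0.00). In this list and the others edgeR called 0 genes. Summed levels of the other lists overlapped between the fractions, except the lymphocyte list (13.3 to 35.7 against 0 to 11.5 CPM). All 10 mitosis genes had lower fitted values in Hdc-GFPhi (summed 955 to 1252 CPM against 1238 to 1957 CPM). Of these, 8 had an unadjusted edgeR p under 0.05 (80%, background 7.31%), while DESeq2 called 6. All 8 neutrophil genes had higher fitted values (5673 to 7990 against 2793 to 6797 CPM). Of these, 6 were at that p (75%, background 4.92%) and DESeq2 called 2. All 5 megakaryocyte genes also had higher fitted values (790.4 to 1049 against 498 to 827 CPM). Of these, 3 were at that p (60%, background 4.92%) and DESeq2 called 3. Over all genes with an adjusted p, DESeq2 called 3.14%. The lists were chosen with earlier results of these data known, so these shares are not a test. Hdc-GFPhi replicate 1 stood apart, with 6597 CPM of immediate early genes against 800.1 to 2282 CPM elsewhere. It also had 626 CPM of eosinophil genes against 4.07 to 21.6 CPM and 2640 CPM of myeloid progenitor genes against 137 to 1443 CPM. Within Hdc-GFPlo, replicate 4 differed from the rest of its group. Megakaryocyte genes were at 827 CPM in it against 498 to 542 CPM, and immediate early genes at 2282 against 800.1 to 956.5 CPM. Mitosis genes were at 1238 CPM in it against 1847 to 1957 CPM, and myeloid progenitor genes at 137 against 590 to 1443 CPM. Hdc-GFPhi replicate 3 was the only library with counts of the natural killer cell genes Il2rb (207), Gzma (69) and Klrd1 (37), and it had 138 counts of Ncr1 against 0 or 1 elsewhere. The lymphocyte list as a whole summed to 0 to 35.7 CPM, with Cd3e at 0 throughout, and erythroid genes to 10.85 to 107 CPM, with Hba-a1 and Hbb-b1 listed at 0. In bulk samples fewer cells of a type and less RNA per cell cannot be told apart, and the part of these lists in the values below was not tested.

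In the mevalonate pathway 6 genes were tested, 3 with a higher and 3 with a lower fitted value in Hdc-GFPhi (median log2 fold change 0.08), and 0 reached an unadjusted p under 0.05. Pmvk, the gene for phosphomevalonate kinase, was at 41.7, 24.9 and 31.5 CPM in Hdc-GFPhi replicates 1 to 3 and at 27.7, 22.85, 24.1 and 29.4 CPM in Hdc-GFPlo replicates 1 to 4. Its highest level was in Hdc-GFPhi replicate 1, and replicate 2 of that group lay among the Hdc-GFPlo libraries (log2 fold change 0.33, SE 0.20, edgeR adjusted p = 0.532, or 0.12 without Hdc-GFPhi replicate 1). Fdps, whose product makes farnesyl diphosphate, the branch point to sterols and protein anchors, was at 25.8, 15.2 and 19.25 CPM against 16.7, 16.35, 15.9 and 15.3 CPM. The 4 Hdc-GFPlo libraries were close together for this gene, while the highest and the lowest levels were both in Hdc-GFPhi (log2 fold change 0.32, SE 0.21, or 0.10 without Hdc-GFPhi replicate 1).

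Idi1, the isomerase that readies isoprenoid units for joining, was at 5.18, 4.62 and 7.78 CPM in Hdc-GFPhi and at 5.72, 8.15, 9.95 and 10.3 CPM in Hdc-GFPlo. Hdc-GFPlo replicate 1 lay below Hdc-GFPhi replicate 3, so the groups overlapped (log2 fold change -0.54, SE 0.33, 95% interval -1.29 to 0.21). The thiolase gene Acat2 (log2 fold change -0.13, SE 0.14), the mevalonate kinase gene Mvk (-0.03, SE 0.28) and the decarboxylase gene Mvd (0.20, SE 0.31) had differences smaller than their intervals. Hdc-GFPhi replicate 1 held the highest level of 4 of the 6 genes (Mvk, Pmvk, Mvd and Fdps), and Hdc-GFPhi replicate 2 the lowest level of 4 (Acat2, Mvk, Idi1 and Fdps). The summed level of the pathway accordingly spread from 108 to 155 CPM within Hdc-GFPhi, which took in the whole range of Hdc-GFPlo, 118 to 134 CPM.

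From squalene to cholesterol 10 genes were tested, 5 with higher and 5 with lower fitted values (median log2 fold change 0.03), and 0 reached an unadjusted p under 0.05. Fdft1, the gene for squalene synthase, which commits isoprenoids to sterols, was at 57.95 CPM in Hdc-GFPhi replicate 1. It was at 34.5 and 30.7 CPM in the other 2 libraries of that group and at 30.4, 28.65, 31.3 and 31.5 CPM in Hdc-GFPlo. One library thus lay well above the other 6, and the log2 fold change of 0.43 (SE 0.21, edgeR adjusted p = 0.454) was 0.10 without it. Lss, the gene for lanosterol synthase, which closes the sterol rings, was at 49.9, 30.2 and 45.5 CPM in Hdc-GFPhi and at 48.5, 59.7, 44.6 and 62.5 CPM in Hdc-GFPlo. Its lowest level was in Hdc-GFPhi replicate 2, without which the log2 fold change of -0.36 (SE 0.20) was -0.17.

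Sc5d, a desaturase gene late in the pathway, was at 61.9, 54.4 and 46.99 CPM in Hdc-GFPhi and at 56.9, 65.2, 58.6 and 66.6 CPM in Hdc-GFPlo. Hdc-GFPhi replicate 1 lay inside the range of Hdc-GFPlo (log2 fold change -0.18, SE 0.13). Sqle, the epoxidase that is a control point of the sterol branch, was at 165, 113 and 137 CPM against 148, 168, 119 and 145 CPM. Its groups covered nearly the same range (log2 fold change -0.06, SE 0.15, 95% interval -0.40 to 0.27).

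Among the other sterol genes, the demethylase gene Cyp51 (log2 fold change -0.16, SE 0.14), the isomerase gene Ebp (0.12, SE 0.12) and Dhcr7, the reductase of the last step (0.19, SE 0.15), had narrow intervals that held 0. The dehydrogenase gene Nsdhl (0.17, SE 0.19) and the reductase gene Hsd17b7 (0.32, SE 0.24) also had their highest level in Hdc-GFPhi replicate 1. Tm7sf2, the gene for a sterol reductase, had the fewest reads of this branch, 56 to 185 counts per library, and its interval was the widest there (log2 fold change -0.55, SE 0.44). The summed sterol branch was at 702, 539.7 and 614.5 CPM in Hdc-GFPhi and at 602, 674, 556 and 657 CPM in Hdc-GFPlo, so the highest and lowest libraries again belonged to the same fraction.

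**Figure D2:**
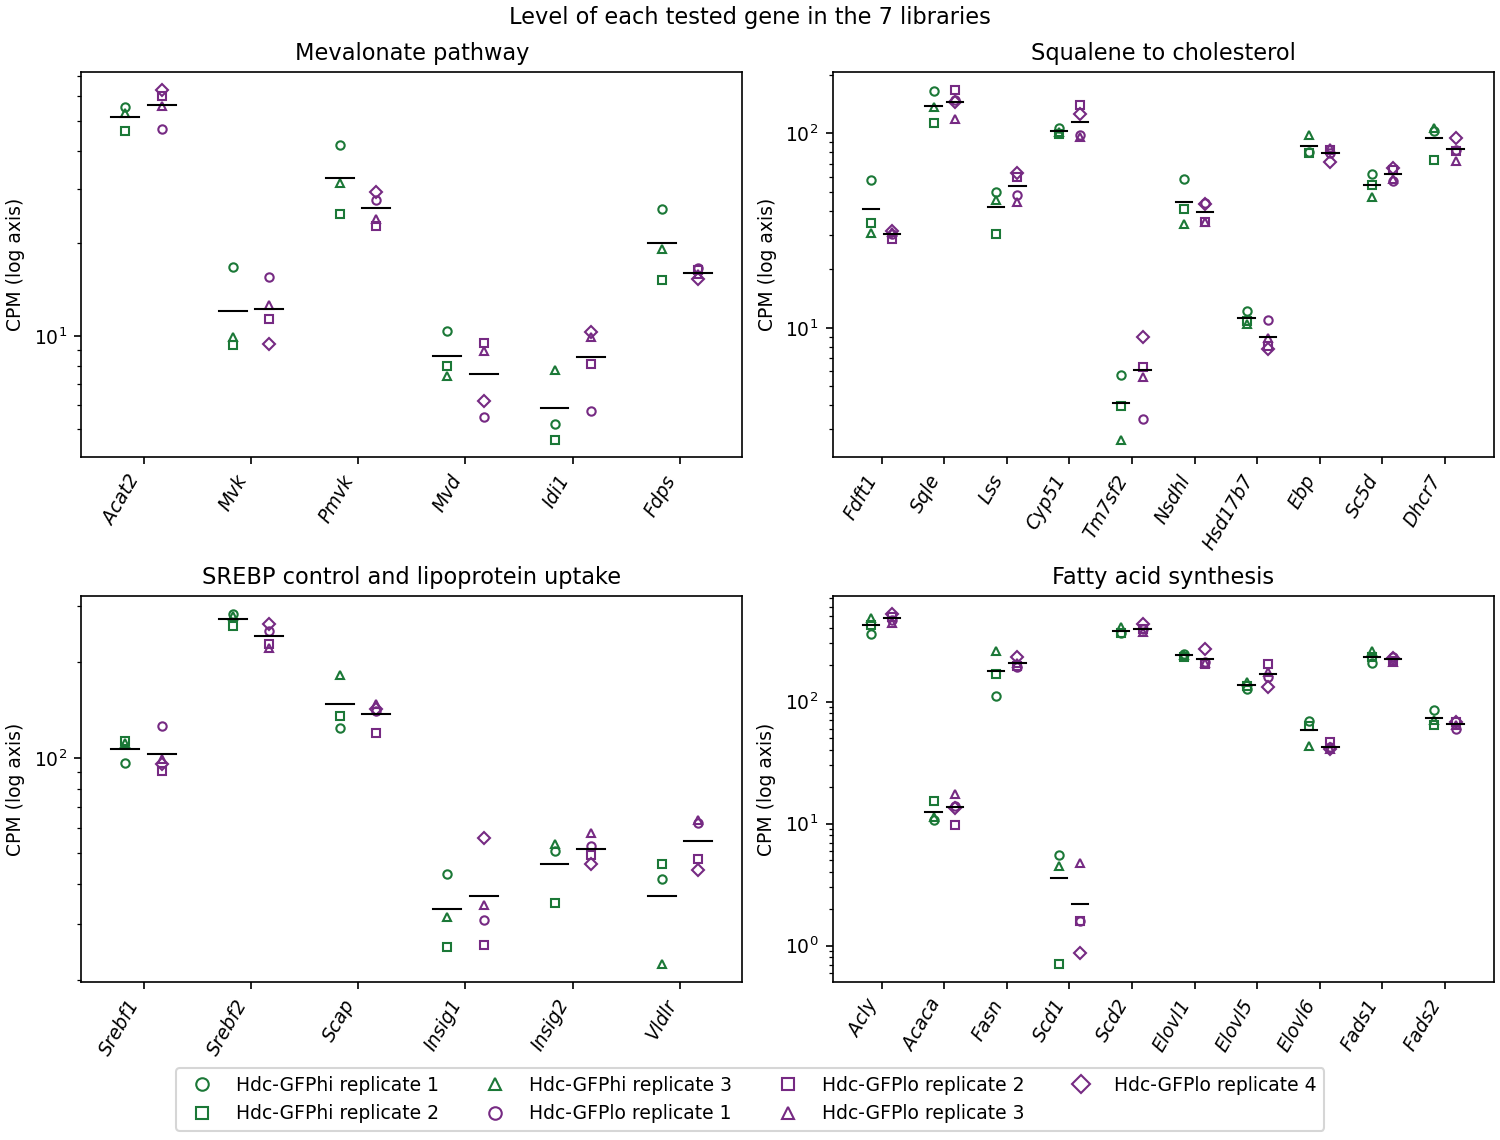
Level of each tested gene (y axis, CPM on a log axis) in the 3 Hdc-GFPhi (green) and 4 Hdc-GFPlo (purple) libraries, 1 panel per role (black lines, group means; symbols, replicates). The colours overlap for all 32 genes, and Fdft1 shows 1 Hdc-GFPhi library at 57.95 CPM above 6 libraries at 28.65 to 34.5 CPM.

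Of the genes that control the programme or take up lipoprotein, 6 were tested, 3 with higher and 3 with lower fitted values (median log2 fold change -0.04). Srebf2, which encodes SREBP2, the factor that drives mainly cholesterol genes, was at 284, 260.1 and 280.4 CPM in Hdc-GFPhi and at 251, 228, 223 and 265 CPM in Hdc-GFPlo. Only Hdc-GFPlo replicate 4 reached into the range of Hdc-GFPhi. The difference was small (1.14-fold, 95% interval 0.990 to 1.31; log2 fold change 0.19, SE 0.09, edgeR adjusted p = 0.439), and it was 0.15 to 0.23 on the log2 scale over the fits without a library. Srebf1, which encodes SREBP1, the factor that drives mainly fatty acid genes, was at 96.1, 113 and 111 CPM against 126, 91.2, 99.4 and 95.4 CPM. The lowest and the highest level were both in Hdc-GFPlo (log2 fold change 0.05, SE 0.13).

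Insig2, one of the pair of retention factors, was at 50.9, 34.8 and 53.4 CPM in Hdc-GFPhi and at 52.8, 49.5, 58.1 and 46.3 CPM in Hdc-GFPlo. One Hdc-GFPhi library lay below the other 6 libraries (log2 fold change -0.16, SE 0.17). Insig1, the other retention factor and itself a target of SREBP, was at 43.0, 25.4 and 31.5 CPM against 30.9, 25.7, 34.5 and 55.7 CPM. Its highest level was in Hdc-GFPlo replicate 4 and the next in Hdc-GFPhi replicate 1 (log2 fold change -0.14, SE 0.28, or 0.13 without Hdc-GFPlo replicate 4). The carrier gene Scap spread from 120.0 to 182 CPM over the 7 libraries (0.10, SE 0.14).

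Vldlr, which encodes a receptor that takes up triglyceride-rich lipoprotein, was at 41.45, 46.4 and 22.4 CPM in Hdc-GFPhi and at 62.1, 48.1, 63.6 and 44.4 CPM in Hdc-GFPlo. Hdc-GFPlo replicate 4 lay below Hdc-GFPhi replicate 2, and Hdc-GFPhi replicate 3 was the lowest of all. The log2 fold change of -0.57 (SE 0.25) had an unadjusted edgeR p of 0.0454 and an adjusted p of 0.399, and it was -0.32 without Hdc-GFPhi replicate 3. Its unadjusted p was not under 0.05 when libraries were scaled by upper quartile or by totals, or when any 1 of Hdc-GFPhi replicate 3 and replicates 1 and 3 of Hdc-GFPlo was left out.

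Sequence before the start of these genes was read from RefSeq promoter windows of the build GRCm38.p6 (250 bases before to 50 after a start), which cover 27 of the 33 symbols. Fdps, Fdft1, Sqle, Scd1, Scd2 and Fads1 have no window. The shares over all genes with a window, given for comparison, were not limited to genes tested here. Strings of known regulators were searched on both strands. TCACNCCAC, a form of the element that SREBPs bind, was found in 1 of the 27 genes (3.70%) and in 1.44% of all 27025 genes with a window. Its shorter form TCACNCCA, which lies inside the longer one, was found in 2 (7.41%) and in 4.97% of all. CACGTG, the E-box that SREBPs can also bind, was in 6 (22.2%) and in 8.09% of all. CCAAT, the box of the partner factor NF-Y, was in 22 (81.5%) and in 41.1% of all, and GGGCGG, the box of the partner Sp1, was in 22 (81.5%) and in 38.2% of all. A gene counts where any of its windows holds the string, and no window of Elovl6 or Acaca holds any of them. The 27 genes have 37 windows and the 27025 genes have 32851. The members thus offer more windows per gene, and the shares are not adjusted for it. A match is only a string of letters, and genes with no match are not thereby without a site. The windows below are shown because they hold the SREBP strings of Hmgcs1 (chr13:119690194-119690242, plus strand) and Srebf2 (chr15:82147087-82147134, plus strand) and the E-boxes of Insig1 (chr5:28071291-28071336, plus strand) and Hsd17b7 (chr1:169969323-169969368, minus strand), with the matched letters in capitals.
Hmgcs1: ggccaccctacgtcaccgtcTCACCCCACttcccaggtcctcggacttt
Srebf2: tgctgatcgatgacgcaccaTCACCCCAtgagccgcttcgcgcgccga
Insig1: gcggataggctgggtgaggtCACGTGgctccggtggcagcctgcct
Hsd17b7: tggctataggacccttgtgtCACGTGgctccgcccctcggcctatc
The windows of Insig1 and Hsd17b7 share the run GTCACGTGGCTCCG, 14 bases that occur in the windows of 5 of the 27025 genes. The pair was picked after their windows were seen to be alike, and the run is the longest they share. Its rarity is therefore not a test. In Hdc-GFPlo replicate 4 Hsd17b7 had its lowest level, 7.78 CPM, and Insig1 its highest, 55.7 CPM. In Hdc-GFPhi replicate 1 Hsd17b7 had its highest level, 12.25 CPM, and Insig1 its next highest, 43.0 CPM. Whether the 2 genes vary together was not tested.

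In fatty acid synthesis 10 genes were tested, 5 with higher and 5 with lower fitted values (median log2 fold change 0.01). Elovl6, which elongates palmitate, was at 69.05, 62.8 and 43.15 CPM in Hdc-GFPhi and at 42.4, 46.2, 41.2 and 40.9 CPM in Hdc-GFPlo. In Hdc-GFPhi, 2 libraries lay above all 4 Hdc-GFPlo libraries, and the third lay among them. The fitted difference was 1.37-fold (95% interval 1.06 to 1.77), a log2 fold change of 0.45 with SE 0.17. Its edgeR adjusted p of 0.332 was the smallest among the 32 genes. Leaving out Hdc-GFPhi replicate 1 gave 0.31 and leaving out replicate 3 gave 0.62. The unadjusted p was above 0.05 without Hdc-GFPhi replicate 1, without Hdc-GFPhi replicate 2, and when Hdc-GFPhi replicate 1 was left out along with replicate 4 of Hdc-GFPlo.

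Elovl5, which elongates polyunsaturated fatty acids, had values in the opposite direction. It was at 127.5, 135 and 144 CPM in Hdc-GFPhi and at 159.8, 204, 174 and 132 CPM in Hdc-GFPlo, where replicate 4 alone lay within the range of Hdc-GFPhi (log2 fold change -0.30, SE 0.14, edgeR adjusted p = 0.412). Elovl1, which elongates saturated very long chains, was at 245.5, 233 and 239.9 CPM against 210.2, 202.5, 207 and 271 CPM. Its Hdc-GFPhi libraries lay above 3 of the Hdc-GFPlo libraries and below replicate 4 (0.10, SE 0.11).

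Acly, whose product supplies cytosolic acetyl-CoA to both branches, was at 360.4, 421 and 482 CPM in Hdc-GFPhi and at 467, 494, 441 and 522 CPM in Hdc-GFPlo. Hdc-GFPhi replicate 3 lay inside the range of Hdc-GFPlo (log2 fold change -0.19, SE 0.11, edgeR adjusted p = 0.504, or -0.09 without Hdc-GFPhi replicate 1). Fasn, the fatty acid synthase gene, was at 111, 167.5 and 260.2 CPM in Hdc-GFPhi and at 192, 197, 207 and 232 CPM in Hdc-GFPlo. The dim fraction was tight and the bright fraction spread 2.34-fold, holding both the lowest and the highest library, so that the log2 fold change of -0.20 (SE 0.23) was 0.05 without Hdc-GFPhi replicate 1 and -0.58 without Hdc-GFPhi replicate 3. Acaca, the carboxylase gene that commits acetyl-CoA to fatty acids, was at 9.74 to 17.4 CPM (-0.13, SE 0.25).

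Scd2, a desaturase gene, was the steadiest of the 32 genes, at 363, 368 and 409.6 CPM against 391, 395, 368 and 429.6 CPM. Its highest level was 1.18 times the lowest, and the interval of the log2 fold change was -0.25 to 0.13. Its relative Scd1, whose similar sequence may share reads with Scd2, had counts of 125, 17 and 94 among the bright libraries and of 33, 30, 106 and 18 among the dim ones (log2 fold change 0.69, SE 0.79). Both ends of its 7.82-fold range in CPM were in Hdc-GFPhi (0.707 and 5.53 CPM), and Hdc-GFPlo ran from 0.870 to 4.73 CPM. The desaturase genes of polyunsaturated fatty acids, Fads1 (0.07, SE 0.10) and Fads2 (0.18, SE 0.13), differed little.

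**Figure D3:**
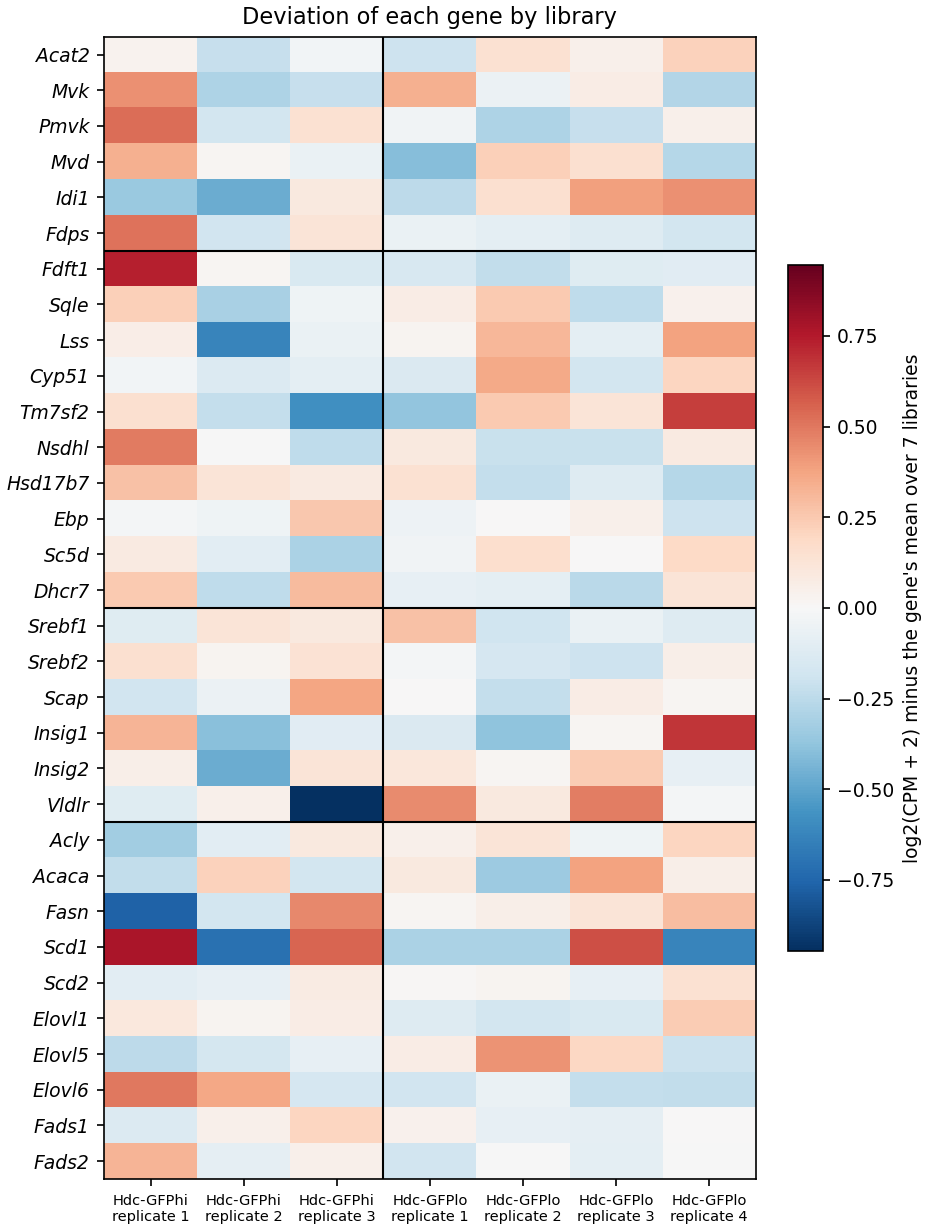
Deviation of log2(CPM + 2) from each gene's mean over the 7 libraries (colour) for the 32 tested genes (rows, black lines between roles) in each library (columns, black line between fractions). Hdc-GFPhi replicate 1 is red for Fdft1, Pmvk, Fdps and Elovl6 and blue for Fasn and Acly, and the darkest blue is Vldlr in Hdc-GFPhi replicate 3 (22.4 CPM).

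Related enzymes were compared as CPM per kilobase, with the longest protein-coding transcript of GENCODE M21 as the length, an annotation of another build than the mm9 of the counts. By this measure the level of Scd2 was 58.1 to 461 times that of Scd1 in Hdc-GFPhi and 69.0 to 437.5 times in Hdc-GFPlo. Srebf2 was 1.94 to 2.502 times Srebf1 in Hdc-GFPhi and 1.69 to 2.35 times in Hdc-GFPlo, higher in every library. The level of Elovl5 was 3.95 to 7.15 times that of Elovl6 in Hdc-GFPhi and 6.90 to 9.46 times in Hdc-GFPlo, and the fractions overlapped through Hdc-GFPhi replicate 3 and Hdc-GFPlo replicate 4. Fads1 was 2.20 to 3.37 times and 2.87 to 3.54 times Fads2. Insig2 exceeded Insig1 in 6 libraries and was 0.832 times its level in Hdc-GFPlo replicate 4.

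Single libraries of both fractions stood out in these genes. Hdc-GFPhi replicate 1 held the highest level of 11 of the 32 genes (34.4%), against 21.9% of all tested genes, and the lowest level of 5 (15.6%), against 22.0%. Its 11 high genes were 4 of the mevalonate pathway, 3 of the sterol branch, 1 control gene (Srebf2) and 3 of fatty acid synthesis (Scd1, Elovl6 and Fads2). Its 5 low genes (Acly, Fasn, Scd2, Elovl5 and Fads1) also belonged to fatty acid synthesis, which thus held both high and low genes. Hdc-GFPhi replicate 2 held the highest level of 0 genes, against 13.2% of all tested genes, and the lowest of 9 (28.1%), against 12.1%. Hdc-GFPlo replicate 4 held the highest level of 9 genes (28.1%), against 13.9% of all tested genes, and the lowest of 3 (9.38%), against 14.9%. When replicate 1 of Hdc-GFPhi and replicate 4 of Hdc-GFPlo were both left out, the median log2 fold change of the 32 genes was -0.03.

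Genes next to these pathways were taken as a further list of 52, of which 51 were tested and Thrsp, with 0 to 18 counts, was not. At an unadjusted edgeR p under 0.05 there were 7 (13.7%, against 12.2% of all tested genes), 3 with higher and 4 with lower values. The median log2 fold change was 0.06. The fractions did not overlap for 3 genes with higher values (background 6.02%) and 3 with lower values (background 5.87%). None passed edgeR over all genes (smallest adjusted p = 0.244). DESeq2 called 1 of the 51, Nr1h2, against 3.14% of all genes with an adjusted p.

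Receptors and processing enzymes of the sterol response were 8 of them. Nr1h2, which encodes the oxysterol receptor LXR beta, was at 111, 97.7 and 92.7 CPM in Hdc-GFPhi and at 82.5, 74.8, 76.55 and 76.6 CPM in Hdc-GFPlo. Every Hdc-GFPhi library lay above every Hdc-GFPlo library (log2 fold change 0.37, SE 0.10, edgeR adjusted p = 0.244), and DESeq2 called it (adjusted p = 0.0327). Rxra, which encodes a partner of LXR and of many other nuclear receptors, was at 12.2, 16.3 and 10.9 CPM against 25.9, 24.9, 24.1 and 16.6 CPM. The fractions were separated by a narrow margin, between Hdc-GFPhi replicate 2 and Hdc-GFPlo replicate 4 (-0.80, SE 0.23, edgeR adjusted p = 0.272). For Abca1, a cholesterol exporter and target of LXR, the log2 fold change was -0.31 (SE 0.17), and for Abcg1, another such exporter, it was 0.13 (SE 0.11).

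Among genes that use isoprenoids, Ggps1, whose product makes geranylgeranyl diphosphate, was at 45.4, 44.0 and 38.9 CPM in Hdc-GFPhi. In Hdc-GFPlo it was at 52.5, 56.1, 52.85 and 50 CPM, for a log2 fold change of -0.31 (SE 0.12). Rabggta, a subunit of the enzyme that puts this anchor on Rab proteins, was at 67.95, 48.3 and 44.4 CPM against 38.9, 41.0, 39.1 and 33.8 CPM (0.49, SE 0.17, or 0.28 without Hdc-GFPhi replicate 1). Both genes had fractions that did not overlap, in opposite directions. Their edgeR adjusted p were 0.353 and 0.312.

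Among genes of lipid storage and supply, Dgat1, which completes triglycerides, was at 45.6, 51.7 and 41.25 CPM in Hdc-GFPhi and at 26.45, 38.0, 36.2 and 24.9 CPM in Hdc-GFPlo, without overlap (log2 fold change 0.56, SE 0.18, edgeR adjusted p = 0.307). Soat1, which esterifies cholesterol for storage, was at 23.2, 37.6 and 37.1 CPM against 51.4, 52.7, 54.5 and 37.25 CPM. The level in Hdc-GFPlo replicate 4 fell within the Hdc-GFPhi range (-0.59, SE 0.21, adjusted p = 0.320 by edgeR). Acsl4, which activates arachidonate, was at 16.4, 34.0 and 34.8 CPM against 35.2, 71.4, 39.2 and 37.0 CPM (-0.69, SE 0.32).

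Me1, the malic enzyme gene that supplies reducing power for synthesis, was at 0.708, 1.455 and 1.47 CPM in Hdc-GFPhi and at 4.31, 19.2, 3.39 and 1.16 CPM in Hdc-GFPlo. A single library, Hdc-GFPlo replicate 2, held most of its reads, and the log2 fold change of -2.53 (SE 0.90, edgeR adjusted p = 0.320) was -1.29 without it.

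**Figure D4:**
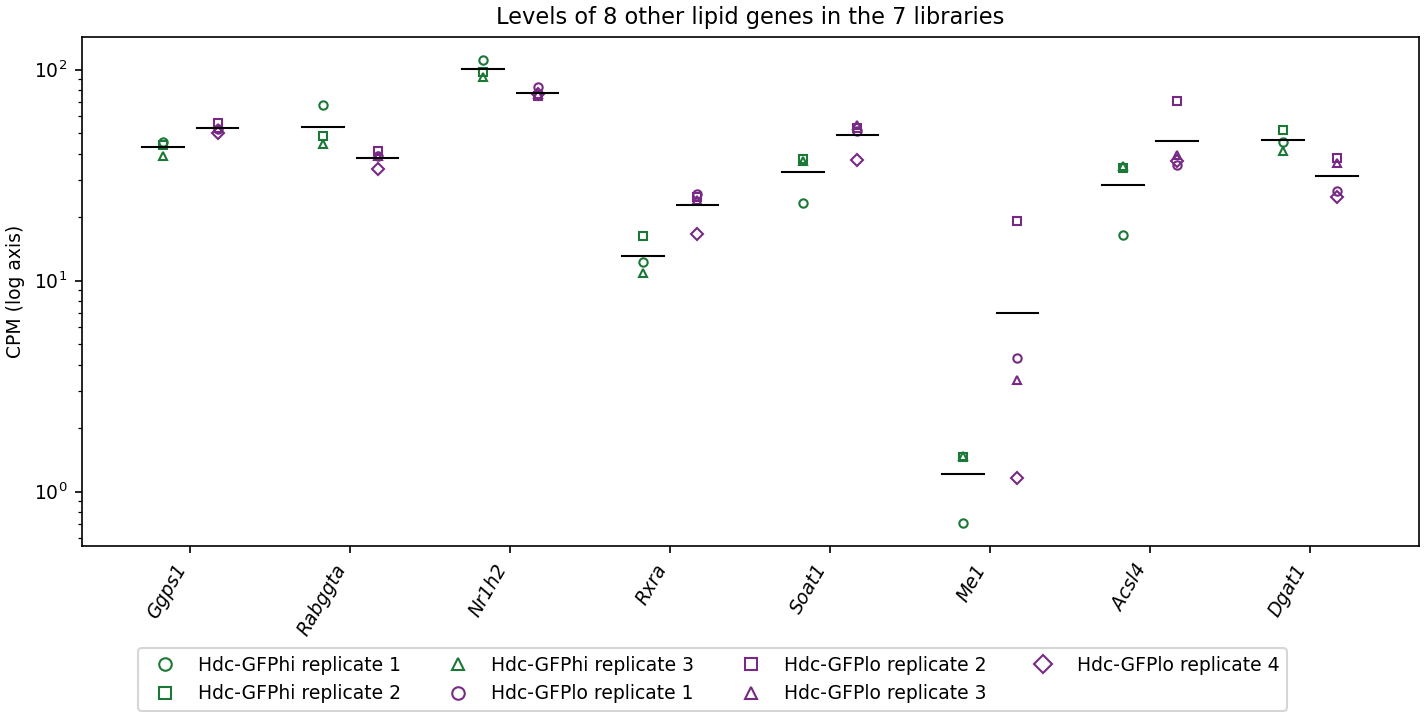
Level (y axis, CPM on a log axis) of the 8 further lipid genes at an unadjusted p under 0.05 or with fractions that did not overlap, in Hdc-GFPhi (green) and Hdc-GFPlo (purple) libraries (black lines, group means). Nr1h2, Rabggta and Dgat1 have all green symbols above purple ones, Ggps1, Rxra and Acsl4 all below, and Me1 has 1 purple library at 19.2 CPM.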

How the data were processed

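RNA was isolated from 500 sorted cells per library with a PicoPure kit, amplified as cDNA with the SMARTer Ultra Low Input kit and built into libraries with Nextera XT, per the labels' protocols. The authors deposited a table of raw counts, 1 row per gene symbol. Per the submitters' processing notes, the tools were bcl2fastq 1.8.4, TopHat2 2.0.4, Bowtie2 and HTSeq 0.6.1, with the build mm9; filters, annotation and strand setting are not stated there, so reads of overlapping genes and near-identical copies cannot be separated. Columns were matched to samples by library code.

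In R 4.3.3 with edgeR 4.0.16, filterByExpr (minimum count 10) kept 12917 of 23284 genes, and 6927 genes had no count. After TMM scaling, the quasi-likelihood F test (robust, group only) compared the fractions, with a threshold of 0.05 on Benjamini-Hochberg adjusted p. Standard errors are the log2 fold change over the square root of F, and intervals use the test's degrees of freedom. Levels are CPM on TMM-scaled library sizes. Replicate pairs differed by more than counting noise (chi-square per degree of freedom 25.2 to 91.6). The edgeR step was first tested on simulated data. DESeq2 1.42.0 and limma 3.58.1 were alternatives, with other scalings and filters, a replicate block and left-out libraries.

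The members and lists were chosen with earlier results of these data known. Values per library are given for members at an unadjusted p under 0.05 and for the 3 of each role with the smallest p; Sqle, Srebf1, Insig1, Scd1, Scd2, Fasn and Elovl1 were added after their values were seen, as were Rpl26, Ndufs5, Abca1 and Abcg1. Further lipid genes are named at an unadjusted p under 0.05 or without overlap. One further HSC marker is not reported here.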

Additional observations from a re-analysis of the deposited data

Results flagged for a closer look

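Among 44 values tested for an outlying library in Hdc-GFPlo (40 genes and the 4 sums by role), 2 had a library set apart from the other 3, where chance flags about 5% of such groups. Elovl1 was at 271 CPM in Hdc-GFPlo replicate 4 against 202 to 210.2 CPM in the other 3. Acsl4 was at 71.4 CPM in Hdc-GFPlo replicate 2 against 35.2 to 39.2 CPM in the other 3.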

How the results depend on the processing

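No member passed an adjusted p of 0.05 under any of the 16 alternatives. Among all genes, 0 passed in each of them except DESeq2, which called 347. Genes at an unadjusted p under 0.05 numbered 1579, and 997 when Hdc-GFPhi replicate 1 was left out. The number of members at an unadjusted p under 0.05 with higher values (1) was 2 by upper quartile scaling, library totals or the replicate block, and 0 when both Hdc-GFPhi replicate 1 and Hdc-GFPlo replicate 4 were left out. The number with lower values (1) was 0 by upper quartile scaling or library totals and 2 with no filter, DESeq2, limma voom, the replicate block or without those 2 libraries. Leaving out each library gave 0 to 3 higher and 0 to 2 lower. The median log2 fold change was -0.07 over all members and -0.08 for fatty acid genes by limma voom, 0.06 for control genes with the replicate block, and 0.01 for further lipid genes without those 2 libraries. Leaving out each library gave medians of -0.04 to 0.07 for all members, -0.08 to 0.19 for mevalonate, -0.13 to 0.12 for sterol, -0.10 to 0.06 for control, -0.05 to 0.05 for fatty acid and -0.01 to 0.08 for further genes.

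Signs turned for some genes. Mvk was at 0.01 by upper quartile scaling and by library totals, Insig1 at 0.11 with the replicate block and Scd1 at -0.15 by limma voom. Without those 2 libraries, Mvd was at -0.06, Nsdhl at -0.03, Fasn at 0.10, Scd1 at -0.04 and Scd2 at 0.01. Over the fits that left out 1 library or those 2, ranges that crossed 0 were -0.46 to 0.13 for Mvk, -0.06 to 0.32 for Mvd, -0.22 to 0.06 for Sqle, -0.07 to 0.32 for Nsdhl, -0.01 to 0.16 for Srebf1, -0.09 to 0.21 for Scap, -0.37 to 0.13 for Insig1, -0.29 to 0.01 for Insig2, -0.04 to 1.39 for Scd1, -0.12 to 0.01 for Scd2, -0.31 to 0.01 for Acaca, -0.58 to 0.10 for Fasn and -0.02 to 0.16 for Fads1. Of 638 gene values under alternatives, 614 kept their direction and their side of the adjusted p threshold, and 23 changed sign. Every alternative but DESeq2 called 0 genes of the whole table, so the side could change only under DESeq2. The cause of the shifts in sign and size was not tested.

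Deviations from the group means correlated at -0.06, -0.01 and -0.14 between same-numbered libraries of replicates 1 to 3. Between libraries with different numbers the correlations were -0.12 to 0.13. With so few libraries in a group, these values cannot tell whether same-numbered libraries share a mouse, and the labels do not say. The replicate block, fitted without Hdc-GFPlo replicate 4, which has no same-numbered library, left 0 members and 0 genes called. Under it Elovl6 was at 0.40 and its unadjusted p was no longer under 0.05. Counts of Scd1 and Tm7sf2 limit what can be seen for them.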
